A study of Homo sapiens with 9 samples.

Results

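Pre-mRNA splicing depends on a core machinery and on proteins that tell it where to act. Small nuclear ribonucleoproteins (snRNPs) carry the core, and the SF3A and SF3B complexes bring the U2 snRNP to the branch site. SR proteins, which hold an arginine and serine rich domain, mostly promote the use of nearby splice sites. Heterogeneous nuclear ribonucleoproteins (hnRNPs) coat nascent RNA and often silence exons. Many genes of both families limit their own expression through unproductive splicing. The transcripts described here come from 55 genes, which are the protein-coding genes of both count tables whose symbol begins with SRSF, HNRNP, SF3A, SF3B or SNRP, leaving out the HNRNPCL copies. They are 55 of the 19238 protein-coding genes that both tables hold, and comprise 11 SR proteins, 23 hnRNPs, 9 U2 factors and 12 core snRNP proteins. Of these, 52 passed the filter on low counts and were tested in every comparison. SRSF12, SNRPN and the readthrough gene HNRNPUL2-BSCL2 did not pass, with 0 to 4 counts in any library.

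Polyadenylated RNA was sequenced from the established cell lines Kyse150 and TE11, both from esophageal squamous cell carcinoma, after lentiviral delivery of an shRNA. The 9 libraries form 4 groups: 2 Kyse150 libraries with an shRNA against KDM2A (Kyse150 knockdown), 2 Kyse150 libraries with a control shRNA, 2 TE11 libraries labelled KDM2A knockdown, and 3 TE11 libraries with a control shRNA. KDM2A is a histone demethylase whose zinc finger binds unmethylated CpG, and the study asks for its downstream targets. Effects of KDM2A loss and of the shRNA itself cannot be told apart, since the labels tell only 1 shRNA against KDM2A. What was repeated between replicates is not stated, so p-values cover only the spread among the sequenced libraries, part of which may be technical.

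Levels are given as CPM, counts scaled to effective library size by TMM, within a line unless a sentence says otherwise. Summed marker levels are scaled over all 9 libraries. In bulk RNA fewer cells of a kind and less RNA per cell cannot be told apart. Many genes below are named for their small p, so separate groups are partly set by that choice. Such separation is only described and adds no support, and the share of all genes that show it was not computed. Assigned counts came to 6052883 to 7167055 per Kyse150 library and 8457767 to 12073098 per TE11 library. KDM2A had 107 and 105 CPM in the Kyse150 knockdown libraries, against 172 and 175 CPM in the Kyse150 controls (log2 -0.71, SE 0.07, edgeR adjusted p = 3.87e-09). It had 126 and 140 CPM in the libraries labelled TE11 knockdown, against 120, 116 and 120 CPM in the TE11 controls (log2 0.16, SE 0.07, edgeR adjusted p = 0.0335). The targeted transcript was thus no lower under the TE11 knockdown label, and every TE11 direction below rests on labels that KDM2A goes against. All 10 squamous markers had counts in every group, with summed levels of 2170 to 2210 CPM in the libraries labelled TE11 knockdown and 5440 to 5880 CPM in the TE11 controls. The sums were 2180 to 2210 CPM in Kyse150 knockdown and 2430 to 2490 CPM in Kyse150 control. Markers of columnar epithelium, fibroblasts, leukocytes and endothelium summed to no more than 21.9 CPM per list in any library, and PTPRC, CDX2 and TFF3 were at 0. Fibroblast markers summed to 2.81 to 3.84 CPM in the libraries labelled TE11 knockdown, against 18.8 to 21.9 CPM in the TE11 controls, with 3 of 3 tested lower. Endothelial markers summed to 1.34 to 1.86 CPM in the libraries labelled TE11 knockdown, against 6.07 to 8.12 CPM in the TE11 controls, with 2 of 2 tested lower. These marker levels moved with the TE11 comparison, and their part in its results was not tested.

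In Kyse150, transcripts of SR proteins and hnRNPs were lower in the knockdown almost throughout, while most U2 factors were not called. Of the 52 members tested, 39 were lower, 1 was higher and 12 were not called at an edgeR adjusted p under 0.05. Of all 14060 genes tested 48.2% were called, 23.3% lower and 24.8% higher, or 33.0% lower and 24.9% higher among genes at 20 CPM or more. The members' 39 of 52 lower lay above that background and their 1 of 52 higher below it. Together the members took 1.06% and 1.08% of assigned counts in the Kyse150 knockdown libraries, against 1.48% and 1.47% in the Kyse150 controls. In TE11, 23 members were higher, 20 were lower and 9 were not called in the libraries labelled knockdown. There 78.1% of all 16453 genes were called, 35.9% higher and 42.2% lower, or 45.3% and 38.0% at 20 CPM or more. The members' shares of 44.2% higher and 38.5% lower were near that background, so the count in TE11 is not a result about these genes.

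**Figure D1:**
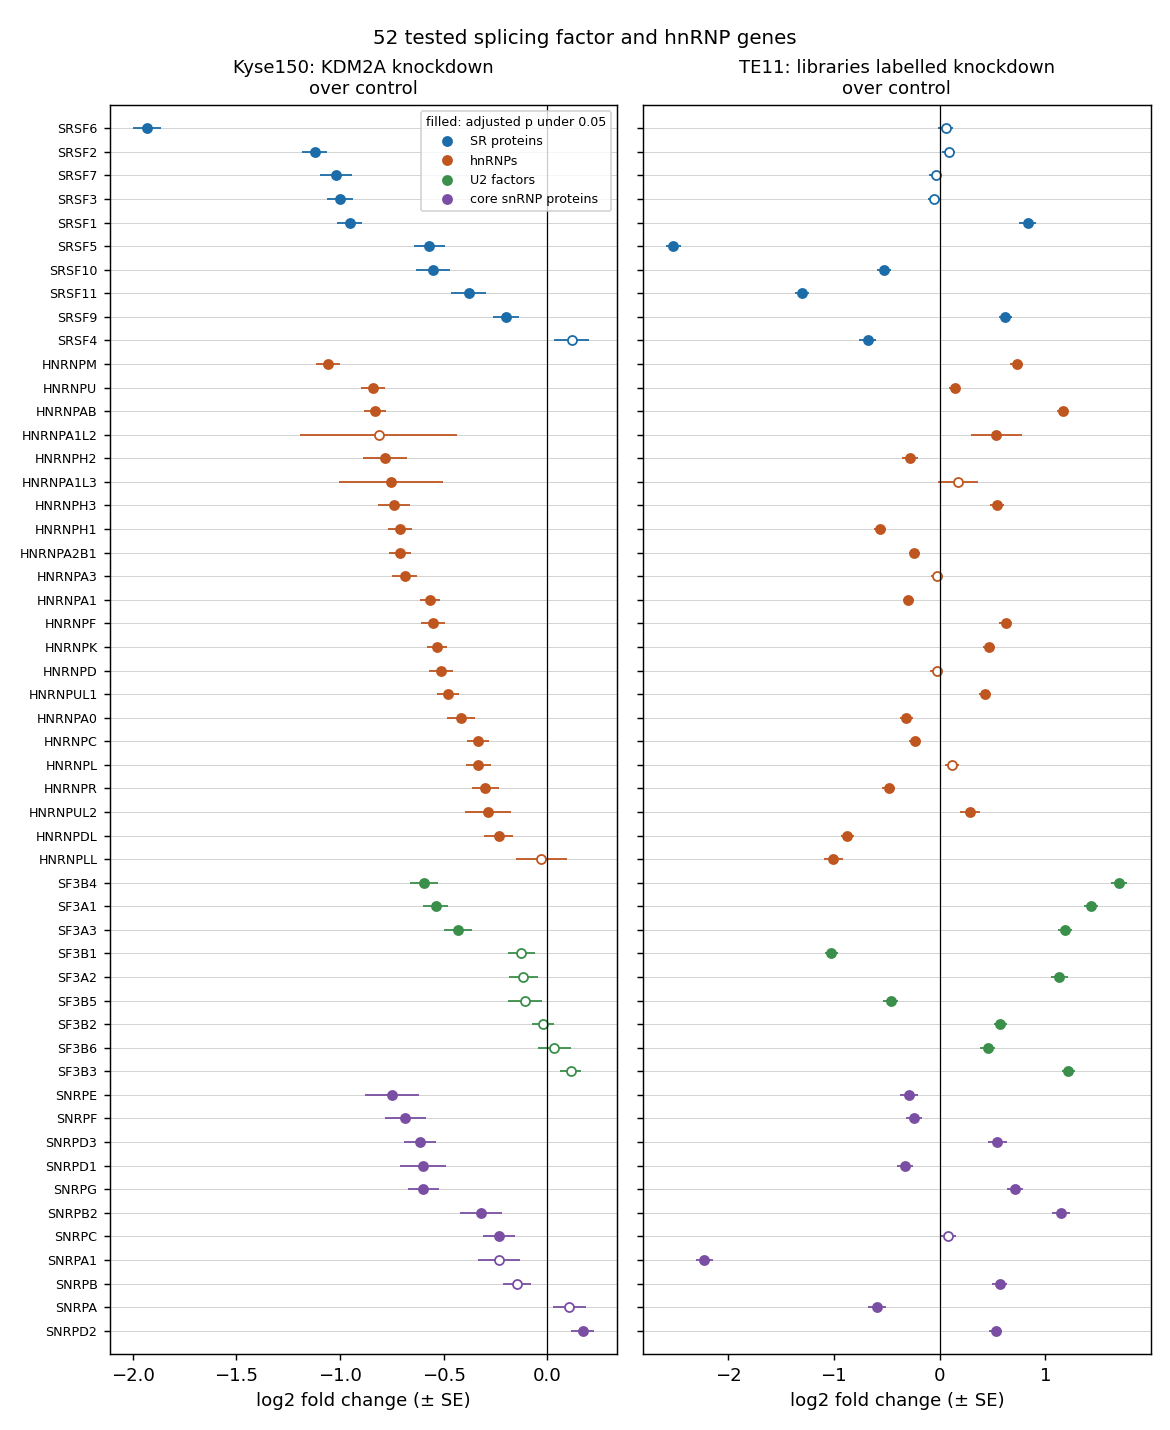
Log2 fold change (± SE) of each of the 52 tested genes, for Kyse150 knockdown over control on the left and for libraries labelled TE11 knockdown over TE11 control on the right, coloured by class; filled points have an edgeR adjusted p under 0.05. In Kyse150, 39 points are filled left of 0 and 1 right of it, and in TE11 the filled points split into 20 left and 23 right.

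The SR proteins, which bind exonic enhancers and recruit the splicing machinery, fell in Kyse150 with 9 of 10 tested members called lower and 0 higher. Of all genes 23.3% were called lower, or 33.0% of those at 20 CPM or more. The median log2 fold change of the SR proteins was -0.76. It was 0.0023 over all genes tested and -0.06 over those at 20 CPM or more. The summed share below is that of the SR proteins. Their summed share of counts was 0.130% and 0.135% in Kyse150 knockdown, against 0.235% and 0.230% in Kyse150 control. SRSF6 (ENSG00000124193, chromosome 20 from 43457928 to 43464247 on the forward strand, GRCh38), an activator of exon inclusion, changed most. It had 97.9 and 92.7 CPM in Kyse150 knockdown, against 372 and 355 CPM in Kyse150 control. Both knockdown libraries lay far below both controls, at a ratio of 0.262 (log2 -1.93, SE 0.07, edgeR adjusted p = 1.78e-18). SRSF2 (ENSG00000161547, chromosome 17 from 76734115 to 76737374 on the reverse strand), also named SC35, had 200.3 and 221 CPM in Kyse150 knockdown, against 458 and 459 CPM in Kyse150 control. Its groups did not overlap (log2 -1.12, SE 0.06, edgeR adjusted p = 1.54e-14). SRSF3 (ENSG00000112081, chromosome 6 from 36594353 to 36605600 on the forward strand), the smallest SR protein and an adaptor for mRNA export, had 156 and 158 CPM in Kyse150 knockdown and 321 and 307 CPM in Kyse150 control. The ratio of its levels was 0.5 (95% interval 0.459 to 0.544, edgeR adjusted p = 3.6e-13).

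SRSF1 (ENSG00000136450, chromosome 17 from 58003360 to 58007346 on the reverse strand), the founding SR protein and a known oncogene product, had 172 and 172 CPM in Kyse150 knockdown, against 332 and 335 CPM in Kyse150 control (log2 -0.95, SE 0.06, edgeR adjusted p = 5.16e-13). The groups were far apart relative to the gap between replicates. Of the exonic bases of SRSF1, 60.7% also lie in another annotated gene, and for SRSF2 and SRSF9 the shares are 36.7% and 46.2%. Their counts are uncertain, since no source used here says whether counting took strand into account. SRSF7, another export adaptor taken up here after its values were seen, had 91.8 and 88.6 CPM in Kyse150 knockdown and 192 and 174 CPM in Kyse150 control (log2 -1.02, SE 0.08, edgeR adjusted p = 1.18e-11). This puts its ratio of 0.493 beside those of SRSF1 (0.516) and SRSF2 (0.459). SRSF5, SRSF10 and SRSF11 had ratios of 0.673, 0.681 and 0.769, all called lower. SRSF10 too was taken up after its values were seen. SRSF9 had a ratio of 0.871 (edgeR adjusted p = 0.0116). Its call was lost without control replicate 2 (log2 -0.13, edgeR adjusted p = 0.216). SRSF4 was the tested SR protein that was not called. It had 92.2 and 92.8 CPM in Kyse150 knockdown and 80.4 and 90.3 CPM in Kyse150 control. Its ratio of 1.08 had a 95% interval of 0.968 to 1.21.

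The libraries labelled TE11 knockdown showed another order among the SR proteins, with 2 of 10 higher, 4 lower and 4 not called. Their 20.0% higher and 40.0% lower stand beside 45.3% and 38.0% of all genes at 20 CPM or more. The lower share is near that background, so the lower count in these libraries is no result about the SR proteins. SRSF5 (ENSG00000100650, chromosome 14 from 69726900 to 69772005 on the forward strand), the SR protein with the greatest fall there, had 71.5 and 70.7 CPM in the libraries labelled TE11 knockdown, against 401, 412 and 405 CPM in TE11 control. Each control library held more than 5 times the level of either labelled knockdown library (log2 -2.52, SE 0.07, edgeR adjusted p = 2.73e-32). SRSF11 had 118 and 118 CPM in the libraries labelled TE11 knockdown and 270.3, 302 and 299 CPM in TE11 control (log2 -1.30, SE 0.07, edgeR adjusted p = 1.2e-21). SRSF4 was lower with a ratio of 0.624 and SRSF10 with one of 0.696. SRSF1 had 149.9 and 145 CPM in the libraries labelled TE11 knockdown, against 68.0, 90.4 and 90.0 CPM in TE11 control (log2 0.83, SE 0.08, edgeR adjusted p = 3.6e-12). SRSF9 had 298 and 275 CPM in the libraries labelled TE11 knockdown, against 189, 178 and 191 CPM in TE11 control (log2 0.62, SE 0.06, edgeR adjusted p = 3.81e-12). Both were called higher, with no overlap between the groups. Part of the SRSF1 overlap, 13.2% of its exonic bases, is with a gene present only in the TE11 table. SRSF6 differed little there, with 156 and 154 CPM in the libraries labelled TE11 knockdown and 131, 165 and 150 CPM in TE11 control. The labelled knockdown libraries lay within the range of the controls. Its ratio of 1.04 had a 95% interval of 0.94 to 1.15, and its sign turned without control replicate 1 (log2 -0.03). SRSF2, SRSF3 and SRSF7 were not called either, with ratios of 1.06, 0.963 and 0.977. SRSF3 was called lower without control replicate 1 (log2 -0.10, edgeR adjusted p = 0.0431).

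**Figure D2:**
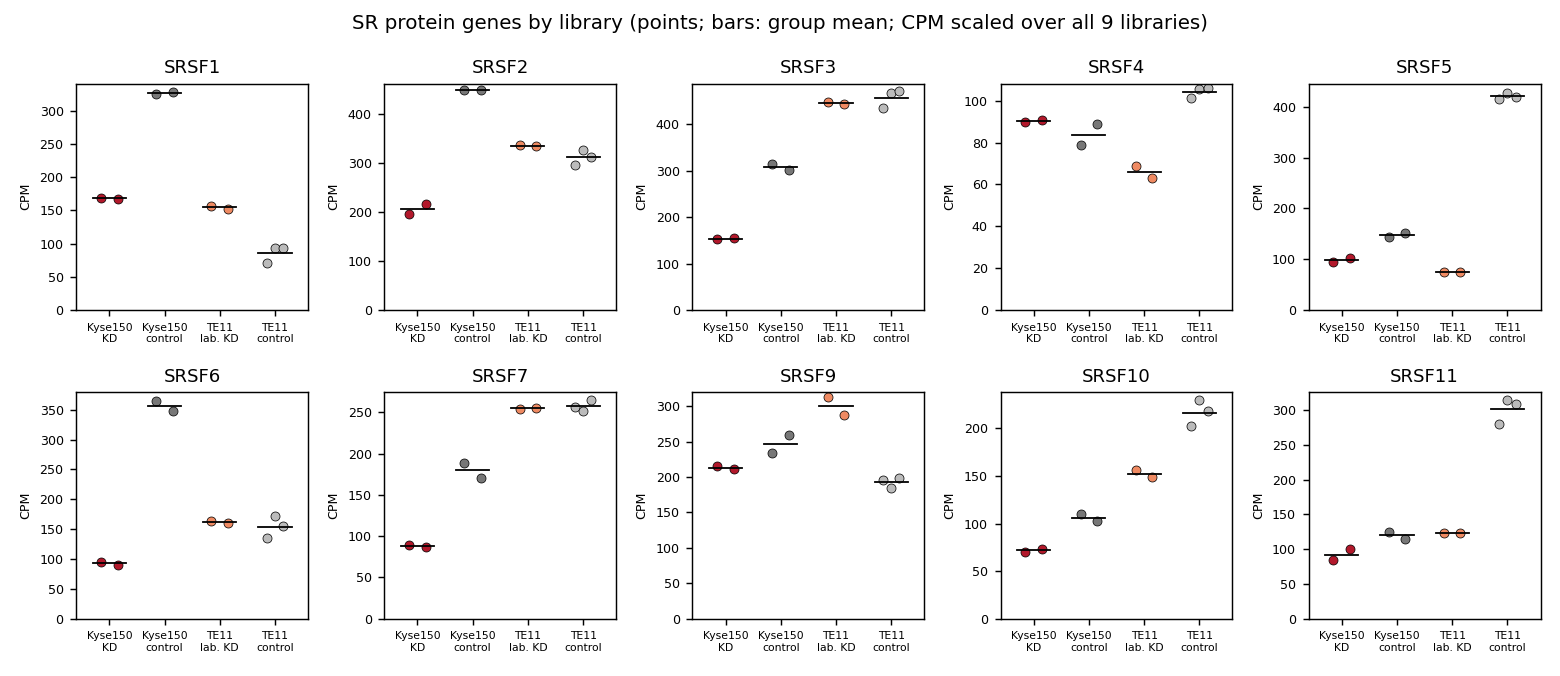
CPM of the 10 tested SR protein genes, scaled over all 9 libraries; each point is a library, each bar a group mean, and the groups run from Kyse150 knockdown and Kyse150 control to libraries labelled TE11 knockdown and TE11 control. SRSF6 is lowest in the Kyse150 knockdown and highest in the Kyse150 control, and SRSF5 stands far higher in the TE11 controls than in any other group. Levels between the lines come from tables made with different annotations.

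The capacity for unproductive splicing is annotated in each SR gene. All 11 have a GENCODE 29 transcript classed as subject to nonsense-mediated decay, beside 14 of 23 hnRNPs, 3 of 9 U2 factors, 4 of 12 core snRNP proteins and 35.6% of 19951 protein-coding genes. Such transcripts arise in several ways, one of them an included cassette exon that brings a premature stop codon. The cassette exons of SRSF6 and SRSF7 in 1 such transcript each are shown because both genes were lower in Kyse150 knockdown and were not called in TE11, and because each exon is absent from the protein-coding form. The SRSF6 exon is chr20:43459153-43459420 on the forward strand with 268 bases. The SRSF7 exon is chr2:38748898-38749173 on the reverse strand with 276 bases. Both are GRCh38 from GENCODE 29, with the first stop codon in the reading frame in capitals.
SRSF6 cassette exon (SRSF6-202): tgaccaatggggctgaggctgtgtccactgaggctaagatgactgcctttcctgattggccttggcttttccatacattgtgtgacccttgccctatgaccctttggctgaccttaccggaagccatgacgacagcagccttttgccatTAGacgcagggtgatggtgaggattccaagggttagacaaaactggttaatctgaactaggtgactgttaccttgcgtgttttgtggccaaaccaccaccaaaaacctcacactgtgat
SRSF7 cassette exon (SRSF7-203): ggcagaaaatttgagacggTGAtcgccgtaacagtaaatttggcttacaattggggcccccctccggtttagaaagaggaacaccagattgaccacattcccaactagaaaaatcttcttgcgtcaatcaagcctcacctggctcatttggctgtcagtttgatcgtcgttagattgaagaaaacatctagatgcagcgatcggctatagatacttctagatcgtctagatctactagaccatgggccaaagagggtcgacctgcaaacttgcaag
Gene counts add up fragments from all forms of a gene, so the inclusion of these exons was not measured here.

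Promoters of the SR genes are rich in CpG, the dinucleotide that KDM2A binds when unmethylated. In the 300 bases from 250 before to 50 after the start (RefSeq, GRCh38.p14), the median CpG count was 31.5 over the 10 SR genes with an entry, 30 over 20 hnRNPs, 28.5 over 8 U2 factors and 20 over 11 core snRNP proteins, beside 22 over all 15843 protein-coding promoters. Shown with each CpG in capitals are the promoters of SRSF6, with the lowest ratio of the SR genes in Kyse150, of SRSF3, with a ratio of 0.5, and of SRSF4, which was not called there. SRSF6 is at chr20:43457646-43457945 on the forward strand. SRSF3 is at chr6:36594112-36594411 on the forward strand. SRSF4 is at chr1:29181851-29182150 on the reverse strand.
SRSF6 promoter: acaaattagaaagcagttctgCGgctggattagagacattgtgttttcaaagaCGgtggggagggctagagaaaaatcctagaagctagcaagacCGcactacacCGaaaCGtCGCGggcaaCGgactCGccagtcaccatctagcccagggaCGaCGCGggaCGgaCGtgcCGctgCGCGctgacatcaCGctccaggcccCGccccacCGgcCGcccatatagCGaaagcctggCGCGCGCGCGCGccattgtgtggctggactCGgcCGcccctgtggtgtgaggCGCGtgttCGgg
SRSF3 promoter: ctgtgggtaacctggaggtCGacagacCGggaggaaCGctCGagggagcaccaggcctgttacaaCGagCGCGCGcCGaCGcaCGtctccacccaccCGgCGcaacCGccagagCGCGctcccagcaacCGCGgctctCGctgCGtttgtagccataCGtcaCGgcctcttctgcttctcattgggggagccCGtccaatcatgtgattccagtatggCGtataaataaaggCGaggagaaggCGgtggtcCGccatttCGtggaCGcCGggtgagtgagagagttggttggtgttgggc
SRSF4 promoter: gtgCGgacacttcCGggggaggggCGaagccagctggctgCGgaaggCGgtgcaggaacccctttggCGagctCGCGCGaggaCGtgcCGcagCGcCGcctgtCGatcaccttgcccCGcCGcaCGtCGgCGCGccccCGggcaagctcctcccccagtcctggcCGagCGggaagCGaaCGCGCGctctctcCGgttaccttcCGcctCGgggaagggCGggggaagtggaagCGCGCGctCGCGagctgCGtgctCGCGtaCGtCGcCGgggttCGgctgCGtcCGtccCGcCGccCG
These windows hold 33 CpG for SRSF6, 30 for SRSF3 and 48 for SRSF4. Over the 10 SR genes with an entry the counts ran from 17 to 48. The 3 shown were picked by their ratios, and a relation between CpG count and fold change was not tested. Searched on both strands, CACGTG, the E-box bound by MYC among other factors, was in 7 of 20 hnRNP promoters (35.0%), 1 of 8 U2 factor promoters and 0 of the 10 SR and 11 core snRNP promoters, beside 8.88% of all promoters. CCAAT was in 13 of 20 hnRNP promoters (65.0%) and 1 of 10 SR promoters (10.0%), beside 36.4% of all. GGGCGG was in 16 of 20 (80.0%) and 5 of 10, beside 58.5% of all. Such matches describe the letters of these windows, and binding of KDM2A or of any factor was not measured.

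The hnRNPs bind nascent transcripts and influence exon choice, export and stability. In Kyse150 knockdown 20 of 22 tested members were lower and 0 higher, with a median log2 fold change of -0.56. Lower calls took 33.0% of all genes at 20 CPM or more and 90.9% of the tested hnRNPs. Their summed share of counts was 0.597% and 0.612% in Kyse150 knockdown, against 0.885% and 0.873% in Kyse150 control. HNRNPM (ENSG00000099783, chromosome 19 from 8444767 to 8489114 on the forward strand), a regulator of exons that change in the epithelial to mesenchymal transition, had 218 and 206 CPM in Kyse150 knockdown, against 446 and 438 CPM in Kyse150 control. Its groups were separated by far more than their replicates differed (log2 -1.06, SE 0.06, edgeR adjusted p = 2.7e-14). HNRNPAB (ENSG00000197451, chromosome 5 from 178204507 to 178211163 on the forward strand) had 432 and 425 CPM in Kyse150 knockdown, against 758 and 769 CPM in Kyse150 control (log2 -0.83, SE 0.05, edgeR adjusted p = 3.9e-13). HNRNPU (ENSG00000153187, chromosome 1 from 244840638 to 244864560 on the reverse strand), a scaffold attachment factor that binds RNA and chromatin, had 309 and 347 CPM in Kyse150 knockdown, against 597 and 577 CPM in Kyse150 control (log2 -0.84, SE 0.06, edgeR adjusted p = 3.8e-12). For both genes the higher knockdown library stayed below the lower control library.

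The hnRNPs with the highest levels were lower as well. HNRNPA1, which binds exonic silencers and antagonises SR proteins, had 657 and 684 CPM in Kyse150 knockdown, against 997 and 988 CPM in Kyse150 control (log2 -0.57, SE 0.05, edgeR adjusted p = 4.62e-10). HNRNPA2B1, its close relative, had 592 and 638 CPM in Kyse150 knockdown, against 1029 and 980.5 CPM in Kyse150 control (log2 -0.71, SE 0.05, edgeR adjusted p = 1.39e-11). HNRNPK, which binds C-rich sequence, had 629 and 624 CPM in Kyse150 knockdown and 898 and 913 CPM in Kyse150 control, a ratio of 0.692. HNRNPF, HNRNPH1 and HNRNPH3, which bind G-rich sequence, had ratios of 0.683, 0.612 and 0.599, and HNRNPUL1 had one of 0.717, all called lower. The other hnRNPs called lower, taken up after their values were seen, were HNRNPA0, HNRNPA1L3, HNRNPA3, HNRNPC, HNRNPD, HNRNPH2, HNRNPL and HNRNPR. Their ratios ran between 0.582 for HNRNPH2 and 0.812 for HNRNPR. HNRNPA1L3 was no longer called with DESeq2 (adjusted p = 0.131) or when knockdown replicate 2 (edgeR adjusted p = 0.107) or control replicate 2 (0.0611) was left out. HNRNPDL was called with a ratio of 0.85 (edgeR adjusted p = 0.0068) and lost the call without control replicate 1 (log2 -0.21, edgeR adjusted p = 0.0567) and without knockdown replicate 1 (log2 -0.20, 0.072). HNRNPUL2 was called with a ratio of 0.82 (edgeR adjusted p = 0.0315). It was no longer called without control replicate 1 (edgeR adjusted p = 0.179), without knockdown replicate 1 (0.087) and without knockdown replicate 2 (0.0973). The call was also lost with DESeq2 (adjusted p = 0.173), with total-count scaling (0.0783) and with the replicate number as a block (0.0529). HNRNPLL, known from CD45 exon silencing in T cells, had 34.7 and 31.4 CPM in Kyse150 knockdown and 34.8 and 32.6 CPM in Kyse150 control. It was not called, with a 95% interval of its ratio of 0.831 to 1.16. HNRNPA1L2, named outside the rule given below, was not called either. It had 1.79 and 3.23 CPM in Kyse150 knockdown and 3.26 and 5.54 CPM in Kyse150 control (95% interval of the ratio 0.34 to 0.954). It was called lower without control replicate 1 (log2 -1.15, edgeR adjusted p = 0.0164) and without knockdown replicate 2 (log2 -1.29, 0.0244). These intervals are not adjusted for the number of genes tested.

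The hnRNPs were called 9 higher and 9 lower of 22 in the libraries labelled TE11 knockdown, or 40.9% each way, with a median log2 fold change of 0.05. That is near the 45.3% higher and 38.0% lower of all genes at 20 CPM or more, so the counts are no result about the hnRNPs. HNRNPAB led the rises, with 668 and 652 CPM in the libraries labelled TE11 knockdown, against 304, 285 and 292 CPM in TE11 control (log2 1.17, SE 0.06, edgeR adjusted p = 5.36e-23). HNRNPM had 462 and 460.3 CPM in the libraries labelled TE11 knockdown, against 287, 262 and 286 CPM in TE11 control (log2 0.73, SE 0.06, edgeR adjusted p = 3.69e-15). HNRNPF had 444 and 470.2 CPM in the libraries labelled TE11 knockdown, against 322, 283 and 285 CPM in TE11 control (log2 0.62, SE 0.06, edgeR adjusted p = 1.47e-12). All labelled knockdown libraries stood above all controls for these 3 genes. HNRNPH3, HNRNPK and HNRNPUL1 were called higher with ratios of 1.46, 1.38 and 1.35. HNRNPU was called with a ratio of 1.1 (edgeR adjusted p = 0.0147). It lost the call without control replicate 3 (log2 0.12, edgeR adjusted p = 0.0903), without labelled knockdown replicate 2 (log2 0.13, 0.163) and with the replicate number as a block (0.0851). HNRNPUL2, with a ratio of 1.22, lost it without labelled knockdown replicate 2 (log2 0.14, edgeR adjusted p = 0.344). HNRNPLL had 36.4 and 35.0 CPM in the libraries labelled TE11 knockdown, against 68.9, 76.0 and 70.0 CPM in TE11 control (log2 -1.003, SE 0.09, edgeR adjusted p = 7.06e-14). HNRNPDL, which is related to the AU-rich element binder HNRNPD, had 182 and 174 CPM in the libraries labelled TE11 knockdown, against 313, 335 and 329.5 CPM in TE11 control (log2 -0.87, SE 0.06, edgeR adjusted p = 1.22e-16). Both fell, as did HNRNPH1, HNRNPA1 and HNRNPA2B1 with ratios of 0.675, 0.814 and 0.848. HNRNPA0, HNRNPC, HNRNPH2 and HNRNPR, taken up after their values were seen, were called lower with ratios between 0.716 for HNRNPR and 0.852 for HNRNPC. Without labelled knockdown replicate 1 the calls of HNRNPC (log2 -0.16, edgeR adjusted p = 0.0749) and HNRNPH2 (log2 -0.20, 0.0875) were lost. HNRNPA1L2 was called higher at 5.47 and 5.56 CPM in the libraries labelled TE11 knockdown, against 3.10, 3.93 and 4.34 CPM in TE11 control (edgeR adjusted p = 0.0389). This call was lost with DESeq2 (adjusted p = 0.13), with no filter on low counts (0.0636) and without control replicate 1 (0.14), control replicate 2 (0.0554), labelled knockdown replicate 1 (0.103) or labelled knockdown replicate 2 (0.123). HNRNPA3, HNRNPD, HNRNPL and HNRNPA1L3 were not called, with 95% intervals of the ratio of 0.911 to 1.07, 0.905 to 1.07, 0.992 to 1.18 and 0.872 to 1.46. HNRNPL was called higher without control replicate 1 (log2 0.13, edgeR adjusted p = 0.0176), with total-count scaling (log2 0.15, 0.0369) and in a fit of all 9 libraries (log2 0.13, 0.0431). HNRNPA1L3 was called higher without labelled knockdown replicate 2 (log2 0.50, edgeR adjusted p = 0.0356), and its sign turned without labelled knockdown replicate 1 (log2 -0.22).

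The U2 factors, the SF3A and SF3B subunits that anchor the U2 snRNP at the branch site, were mostly not called in Kyse150. In that line 3 of 9 were lower, 0 were higher and the median log2 fold change was -0.12. Their 33.3% lower stands beside 33.0% among all genes at 20 CPM or more. Their summed share of counts was 0.218% and 0.222% in Kyse150 knockdown, against 0.235% and 0.234% in Kyse150 control. SF3B4 (ENSG00000143368, chromosome 1 from 149923317 to 149928344 on the reverse strand), an RNA-binding subunit upstream of the branch site, had 144 and 141 CPM in Kyse150 knockdown, against 209 and 222 CPM in Kyse150 control (log2 -0.59, SE 0.07, edgeR adjusted p = 3.4e-08). SF3A1 (ENSG00000099995, chromosome 22 from 30331988 to 30356947 on the reverse strand), the largest SF3A subunit, had 221 and 221 CPM in Kyse150 knockdown, against 312 and 331 CPM in Kyse150 control (log2 -0.54, SE 0.06, edgeR adjusted p = 2.89e-08). SF3A3 had 160.5 and 148 CPM in Kyse150 knockdown, against 208 and 209 CPM in Kyse150 control (log2 -0.43, SE 0.07, edgeR adjusted p = 5.62e-06). In these 3 genes both knockdown libraries lay below both controls. The other members with an SF3B symbol were not called. PHF5A, a gene of branch site recognition that the symbol rule leaves out, was taken up after its values were seen. It had 37.7 and 37.4 CPM in Kyse150 knockdown, against 77.0 and 72.6 CPM in Kyse150 control (log2 -0.99, SE 0.10, edgeR adjusted p = 3.93e-09). SF3B1, the clamp around the branch site and a frequent target of mutation in blood cancers, had 206 and 229 CPM in Kyse150 knockdown and 245 and 229 CPM in Kyse150 control. One knockdown library was level with the lower control, and SF3B1 was called lower without knockdown replicate 2 (log2 -0.21, edgeR adjusted p = 0.0256). SF3B2 had 490.5 and 458 CPM in Kyse150 knockdown and 477 and 486 CPM in Kyse150 control. Its sign turned with total-count scaling (log2 0.03) and without knockdown replicate 2 (0.02). SF3B3 had 602 and 627 CPM in Kyse150 knockdown and 573 and 564 CPM in Kyse150 control. Its ratio of 1.08 (95% interval 1.01 to 1.16) was called higher with total-count scaling (log2 0.16, adjusted p = 0.0079). The 95% intervals of the ratio were 0.839 to 1.01 for SF3A2, 0.83 to 1.04 for SF3B5 and 0.918 to 1.14 for SF3B6. The sign of SF3B6 turned without control replicate 2 (log2 -0.05) and without knockdown replicate 2 (-0.03).

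All 9 U2 factors were called in the libraries labelled TE11 knockdown, 7 higher (77.8%) and 2 lower (22.2%), beside 45.3% and 38.0% of all genes at 20 CPM or more. Their median log2 fold change was 1.13, beside 0.09 over those genes. SF3B4 had 196 and 196 CPM in the libraries labelled TE11 knockdown, against 67.5, 59.4 and 54.5 CPM in TE11 control (log2 1.70, SE 0.08, edgeR adjusted p = 1.31e-24). SF3A1 had 282 and 283 CPM in the libraries labelled TE11 knockdown, against 112, 99.8 and 102.6 CPM in TE11 control (log2 1.43, SE 0.07, edgeR adjusted p = 6.49e-24). SF3B3 had 523 and 546 CPM in the libraries labelled TE11 knockdown, against 242, 221 and 227 CPM in TE11 control (log2 1.22, SE 0.06, edgeR adjusted p = 4.52e-23). Every labelled knockdown library exceeded every control in each of the 3. SF3A2 and SF3A3 had ratios of 2.188 and 2.28. SF3B2 and SF3B6, the subunit that contacts the branch site adenosine, had ratios of 1.49 and 1.37. SF3B1 went the other way, with 297 and 293 CPM in the libraries labelled TE11 knockdown, against 552, 637 and 609 CPM in TE11 control (log2 -1.02, SE 0.06, edgeR adjusted p = 2.37e-19). SF3B5, the smallest subunit, had 96.7 and 96.7 CPM in the libraries labelled TE11 knockdown, against 139, 132 and 128 CPM in TE11 control (log2 -0.46, SE 0.07, edgeR adjusted p = 1.97e-07). Subunits of the one SF3B complex were thus called in both directions in this comparison.

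**Figure D3:**
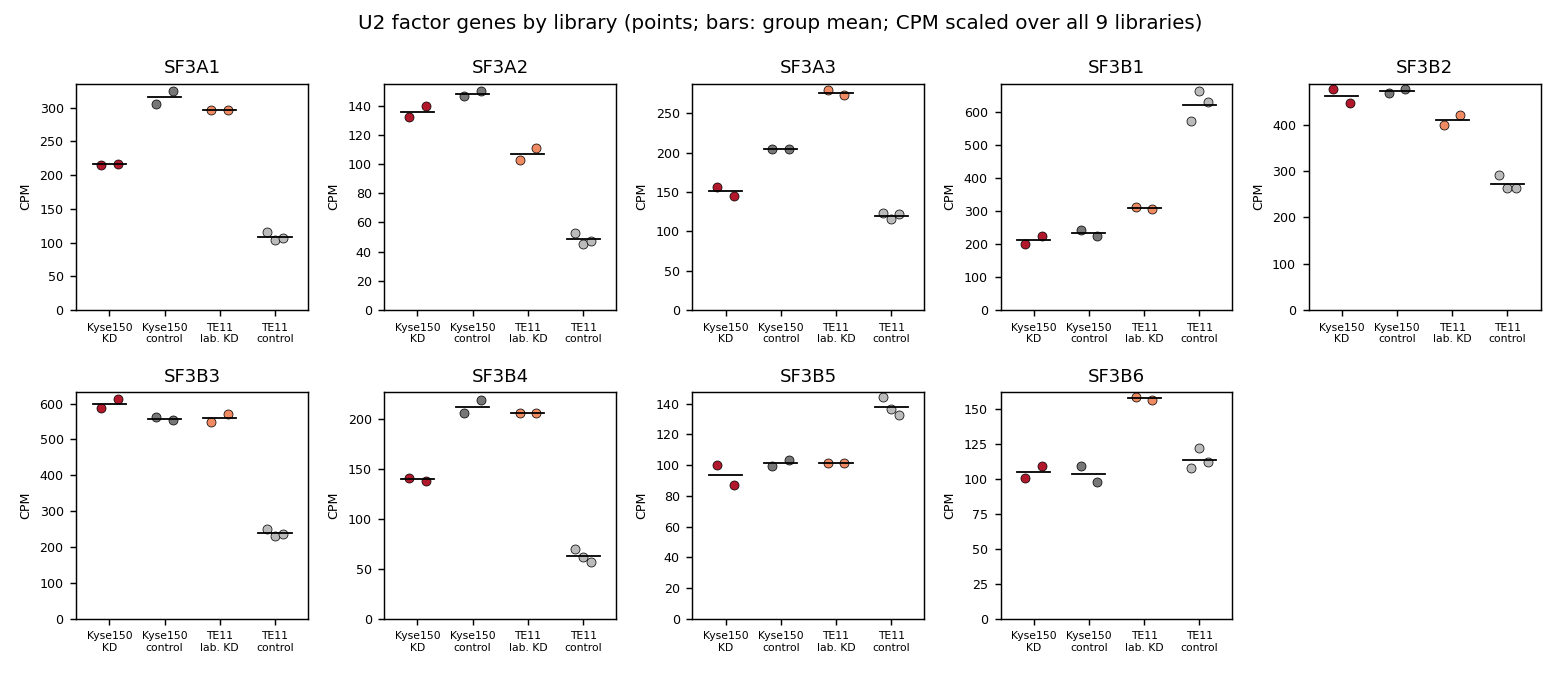
CPM of the 9 U2 factor genes, scaled over all 9 libraries; each point is a library, each bar a group mean, and the groups run from Kyse150 knockdown and Kyse150 control to libraries labelled TE11 knockdown and TE11 control. SF3A1, SF3A2, SF3A3, SF3B2, SF3B3 and SF3B4 are lowest in the TE11 controls and SF3B1 and SF3B5 highest there. Levels between the lines come from tables made with different annotations.

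The core snRNP proteins include the Sm proteins, which form the ring around snRNAs, and the U1 and U2 specific proteins SNRPA, SNRPC, SNRPA1 and SNRPB2. In Kyse150, 7 of 11 tested members were lower, 1 was higher and 3 were not called, with a median log2 fold change of -0.32. Beside 33.0% lower and 24.9% higher of all genes at 20 CPM or more, the shares were 63.6% and 9.09% for these core snRNP genes. Their summed share of counts was 0.116% and 0.115% in Kyse150 knockdown, against 0.129% and 0.127% in Kyse150 control. The Sm gene SNRPD3 (ENSG00000100028, chromosome 22 from 24555503 to 24609980 on the forward strand) had 93.0 and 92.2 CPM in Kyse150 knockdown, against 149.5 and 134 CPM in Kyse150 control (log2 -0.61, SE 0.08, edgeR adjusted p = 2.29e-07). SNRPG had 95.4 and 91.1 CPM in Kyse150 knockdown, against 139 and 143 CPM in Kyse150 control (log2 -0.60, SE 0.07, edgeR adjusted p = 1.98e-07). SNRPF had 41.6 and 44.1 CPM in Kyse150 knockdown, against 70.5 and 67.2 CPM in Kyse150 control (log2 -0.68, SE 0.10, edgeR adjusted p = 1.88e-06). For these Sm genes the groups did not overlap. SNRPD1 was lower with a ratio of 0.66, and SNRPC and SNRPE, taken up after their values were seen, with ratios of 0.85 and 0.595. The SNRPC call was lost without control replicate 2 (log2 -0.16, edgeR adjusted p = 0.176) and with DESeq2 (adjusted p = 0.0737). SNRPD2 (ENSG00000125743, chromosome 19 from 45687454 to 45692569 on the reverse strand), the Sm gene with the highest level, had 379.7 and 369.7 CPM in Kyse150 knockdown, against 326 and 339.9 CPM in Kyse150 control (log2 0.17, SE 0.06, edgeR adjusted p = 0.0134). Its call as the single higher member was lost without control replicate 1 (log2 0.14, edgeR adjusted p = 0.149), without knockdown replicate 1 (log2 0.15, 0.108), with DESeq2 (adjusted p = 0.0553) and with the replicate number as a block (0.0636). SNRPB2 was called lower with a ratio of 0.801. It lost the call without control replicate 1 (edgeR adjusted p = 0.0791), without knockdown replicate 1 (0.0802) and with DESeq2 (0.0822). SNRPA, SNRPA1 and SNRPB were not called, with 95% intervals of the ratio of 0.964 to 1.2, 0.743 to 0.975 and 0.826 to 0.991. SNRPB was called lower without knockdown replicate 1 (log2 -0.23, edgeR adjusted p = 0.0275). SNRPA1 was called lower with the counts of its processed pseudogene added (log2 -0.29, edgeR adjusted p = 0.0135) and in a fit of all 9 libraries (log2 -0.24, 0.0423).

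The core snRNP proteins were called 5 higher and 5 lower of 11 in the libraries labelled TE11 knockdown, or 45.5% each way, with a median log2 fold change of 0.08. Beside 45.3% higher and 38.0% lower of all genes at 20 CPM or more, these counts are no result about the class. The 5 lower became 3 without labelled knockdown replicate 1, which ended the calls of SNRPE and SNRPF. SNRPA1 (ENSG00000131876, chromosome 15 from 101281510 to 101295282 on the reverse strand), the U2 A' protein, had 41.0 and 41.4 CPM in the libraries labelled TE11 knockdown, against 196, 200.4 and 181 CPM in TE11 control. Each control held more than 4 times the level of either labelled knockdown library (log2 -2.22, SE 0.08, edgeR adjusted p = 8.14e-28). SNRPB2, the U2 B'' protein that pairs with it on the U2 snRNA, had 89.9 and 93.7 CPM in the libraries labelled TE11 knockdown, against 40.0, 47.6 and 36.8 CPM in TE11 control (log2 1.15, SE 0.09, edgeR adjusted p = 4.82e-16). These partners were thus called in opposite directions. SNRPG, SNRPD2, SNRPB and SNRPD3 were called higher with ratios of 1.64, 1.45, 1.48 and 1.46. SNRPA, which binds the U1 snRNA, had 55.5 and 62.2 CPM in the libraries labelled TE11 knockdown and 92.7, 84.4 and 89.2 CPM in TE11 control (log2 -0.59, SE 0.08, edgeR adjusted p = 1.2e-08). SNRPD1 and SNRPF were called lower with ratios of 0.796 and 0.847, as was SNRPE with one of 0.818. SNRPC was not called (95% interval of the ratio 0.96 to 1.17). Without labelled knockdown replicate 1, SNRPE had a log2 fold change of -0.22 (edgeR adjusted p = 0.088) and SNRPF one of -0.17 (edgeR adjusted p = 0.14).

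Near-identical copies make some members uncertain. Of the 75-base stretches of its longest coding transcript, HNRNPA1 shares 27.2% with annotated genes that do not overlap its exons. The shares counted likewise are 40.8% for HNRNPA1L2, 41.3% for HNRNPA1L3, 28.8% for SNRPA1, 14.8% for HNRNPA3 and 13.9% for SNRPE. Processed pseudogenes took 14.4% (Kyse150) and 12.5% (TE11) of the summed counts of SNRPA1 and its copy. For HNRNPA1 and its copies the share was 3.51% in the Kyse150 table. HNRNPUL2 shares 44.1% of its exonic bases with the readthrough gene HNRNPUL2-BSCL2, and SNRPD3 shares 24.6% with GGT1 and GUCD1. Fragments that fell on more than 1 place were 6.58% to 6.78% of the Kyse150 columns and 2.94% to 4.07% of the TE11 columns.

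The difference between the responses was tested on the genes that the tables share, with all 9 libraries fitted together, as the log2 fold change in TE11 minus that in Kyse150. It was called higher for 38 members and lower for 9 of 52, beside 66.9% of all 15895 genes called, 33.8% higher and 33.1% lower, or 47.4% and 31.3% at 20 CPM or more. By class, 6 SR proteins, 16 hnRNPs, 7 U2 factors and 9 core snRNP proteins were called higher, and 3, 2, 2 and 2 lower. The difference was greatest for SF3B4 (log2 2.32, SE 0.10, edgeR adjusted p = 1.57e-28), HNRNPAB (log2 2.02, SE 0.08, edgeR adjusted p = 7.16e-32) and SRSF6 (log2 2.01, SE 0.11, edgeR adjusted p = 6.57e-24). It was lowest for SNRPA1 (log2 -1.97, SE 0.13, edgeR adjusted p = 2.84e-21) and SRSF5 (log2 -1.92, SE 0.10, edgeR adjusted p = 1.77e-25). Calls within the lines pointed in opposite directions for 16 members, each lower in Kyse150 knockdown and higher in the libraries labelled TE11 knockdown. The difference was called for each of them. They are the SR genes SRSF1 and SRSF9, the hnRNPs HNRNPAB, HNRNPF, HNRNPH3, HNRNPK, HNRNPM, HNRNPU, HNRNPUL1 and HNRNPUL2, the U2 factors SF3A1, SF3A3 and SF3B4, and the core snRNP genes SNRPB2, SNRPD3 and SNRPG. Another 14 members were called lower in both lines, and SNRPD2 was called higher in both. In Kyse150 knockdown 9 were called lower that were not called in TE11. Conversely, 6 were called higher and 6 lower in the libraries labelled TE11 knockdown and not called in Kyse150. The share of all genes with such joint calls was not computed, so these counts are no result about the members. Among the 16, the Kyse150 calls of SRSF9, HNRNPUL2 and SNRPB2 were lost under some settings, as were the TE11 calls of HNRNPU and HNRNPUL2. The 2 U2 factors with a lower difference became 1 without Kyse150 knockdown replicate 1. The TE11 term of this difference rests on labels that KDM2A goes against. Against the Kyse150 controls, 29.1% of all genes were called higher and 24.5% lower in the libraries labelled TE11 knockdown. For the TE11 controls the shares were 43.7% and 36.0%. What sets the labelled libraries apart from the TE11 controls was not tested.

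Levels were also set across the lines, with CPM scaled over all 9 libraries. The tables hold 57820 and 60683 genes, 52165 of them in both. They were thus made with different annotations, and the table cannot be told apart from the line. MATR3, a splicing regulator that is no member and is named outside the rule given below, had 1057 to 1913 counts per library in the Kyse150 table. In the TE11 table it had 2 to 28. Set against the Kyse150 controls, the libraries labelled TE11 knockdown had 24 members called higher (46.2%) and 13 lower (25.0%), beside 29.1% and 24.5% of all genes. The TE11 controls had 24 higher (46.2%) and 21 lower (40.4%), beside 43.7% and 36.0%. The counts for the TE11 controls are near that background and are no result about the members. Shares among genes at 20 CPM or more were not computed for these comparisons. These comparisons share the Kyse150 controls. SF3B3 had 549 and 571 CPM in the libraries labelled TE11 knockdown, 250.4, 229 and 235 CPM in the TE11 controls and 563 and 553 CPM in the Kyse150 controls. The labelled libraries lay on either side of the Kyse150 controls (log2 0.01 against Kyse150 control, 95% interval of the ratio 0.927 to 1.09). SF3B4 had 206 and 205 CPM in the libraries labelled TE11 knockdown, 69.9, 61.7 and 56.3 CPM in the TE11 controls and 205 and 218 CPM in the Kyse150 controls (95% interval 0.879 to 1.07). SF3B5 had 102 and 101.1 CPM in the libraries labelled TE11 knockdown, 144, 137 and 133 CPM in the TE11 controls and 99.2 and 104 CPM in the Kyse150 controls (95% interval 0.895 to 1.12). SF3A1 was not called either (95% interval 0.86 to 1.03). The other 5 U2 factors were called, with log2 differences from the Kyse150 controls of -0.47 for SF3A2, -0.20 for SF3B2, 0.41 for SF3B1, 0.43 for SF3A3 and 0.61 for SF3B6. Among the 10 SR proteins tested, 4 were called higher than in the Kyse150 controls and 5 lower, and SRSF11 was not called (95% interval 0.926 to 1.15). SRSF6, with the most negative of these differences, had 163 and 161 CPM in the libraries labelled TE11 knockdown, 136, 172 and 155 CPM in the TE11 controls and 365 and 348 CPM in the Kyse150 controls (log2 -1.14, SE 0.07, edgeR adjusted p = 2.36e-19 for labelled TE11 knockdown against Kyse150 control). The 2 lower calls among U2 factors in that comparison became 1 without Kyse150 control replicate 2 and without labelled knockdown replicate 1.

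Per kilobase of the longest coding transcript, with CPM again scaled over all 9 libraries, the order of the levels differed between the groups. SNRPD2 stood first in Kyse150 knockdown with 406.0 CPM per kb, ahead of HNRNPAB with 233.1. HNRNPAB stood ahead of SNRPD2 in Kyse150 control, with 417.2 and 362.7 CPM per kb, and in the libraries labelled TE11 knockdown, with 384.7 and 364.3. In TE11 control HNRNPA2B1 had 422.8 CPM per kb, HNRNPA1 396.6, HNRNPK 252.4 and SNRPD2 249.2. Averaged over the 4 groups, SNRPD2 had 345.6 CPM per kb, HNRNPA2B1 304.5, HNRNPAB 301.1, HNRNPA1 279.6 and HNRNPK 278.9. SRSF9 led the SR proteins in every group, with 177.6 CPM per kb in Kyse150 knockdown, 205.1 in Kyse150 control, 250 in the libraries labelled TE11 knockdown and 160.5 in TE11 control. Behind it stood SRSF2 with 71.3 in Kyse150 knockdown, 156.1 in Kyse150 control and 116.4 in the libraries labelled TE11 knockdown, whereas in TE11 control SRSF5 had 149.5 CPM per kb, against 108.3 for SRSF2. Among U2 factors the averages over the groups were 156.6 CPM per kb for SF3B5, 156.2 for SF3B6 and 124.4 for SF3B2, and among core snRNP genes 139.4 for SNRPB and 118.7 for SNRPG. SNRPD2, SRSF9 and SF3B5 have the shortest transcripts of their classes among those tested.

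The rest of the splicing machinery was followed through 7 other lists, drawn up with earlier results of these data known. In Kyse150 knockdown 14 of 15 genes of U2 branch site and 3' splice site recognition were lower and 0 higher, including SF1, the branch point binding protein (log2 -0.70, SE 0.06, edgeR adjusted p = 1.34e-10). U2AF2, which reads the polypyrimidine tract, was lower as well (log2 -0.66, SE 0.06, edgeR adjusted p = 4.18e-10). Lower were also 15 of 23 genes of the U4/U6.U5 particle, 10 of 22 of the PRPF19 complex and catalytic step, 14 of 18 of snRNP assembly and 4 of 16 of U1 and the minor spliceosome, with 0 higher in each. Of all genes at 20 CPM or more 33.0% were lower and 24.9% higher, so the U1 and minor spliceosome genes and, less so, the PRPF19 complex lay near the background for lower calls. Of 35 other splicing regulators, 27 were lower and 3 higher. The paraspeckle protein SFPQ led them, with 266 and 252 CPM in Kyse150 knockdown, against 608 and 620.1 CPM in Kyse150 control (log2 -1.25, SE 0.06, edgeR adjusted p = 4.64e-16). Among 11 SR kinases and importins, 6 were lower and 2 higher, with DYRK1A among the lower (log2 -0.72, SE 0.11, edgeR adjusted p = 8.47e-06). CLK3, a kinase of SR proteins, was higher at 95.5 and 99.8 CPM in Kyse150 knockdown, against 61.2 and 72.7 CPM in Kyse150 control (log2 0.55, SE 0.09, edgeR adjusted p = 1.39e-05).

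The libraries labelled TE11 knockdown had 11 higher and 2 lower of the 15 branch site genes, 17 and 3 of 23 in the U4/U6.U5 particle, 15 and 2 of 22 in the PRPF19 complex and 12 and 2 of 18 in snRNP assembly. In the same order the counts were 4 and 8 of 16 in U1 and the minor spliceosome, 13 and 17 of 37 other regulators, and 3 and 4 of 11 SR kinases and importins. Beside 45.3% higher and 38.0% lower of all genes at 20 CPM or more, the counts of the regulators and of the kinases and importins are near the background. PRPF19, the ubiquitin ligase that gives this complex its name, had 422 and 420.1 CPM in the libraries labelled TE11 knockdown, against 182, 157 and 175 CPM in TE11 control (log2 1.30, SE 0.06, edgeR adjusted p = 4.51e-23). In Kyse150 it had 274 and 284 CPM in the knockdown, against 389 and 394 CPM in the control (log2 -0.49, SE 0.06, edgeR adjusted p = 5.66e-08). WDR77, the partner of the methyltransferase that modifies Sm proteins, had 82.6 and 72.8 CPM in the libraries labelled TE11 knockdown, against 25.6, 23.2 and 20.1 CPM in TE11 control. It had 40.2 and 34.9 CPM in Kyse150 knockdown, against 66.5 and 78.0 CPM in Kyse150 control. CLK2, another SR protein kinase, had 18.9 and 16.1 CPM in the libraries labelled TE11 knockdown, against 81.5, 77.6 and 87.5 CPM in TE11 control (log2 -2.23, SE 0.11, edgeR adjusted p = 6.01e-24). LUC7L3, associated with the U1 snRNP, had 77.6 and 79.1 CPM in the libraries labelled TE11 knockdown, against 232, 274 and 247 CPM in TE11 control (log2 -1.68, SE 0.07, edgeR adjusted p = 2.94e-24).

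**Figure D4:**
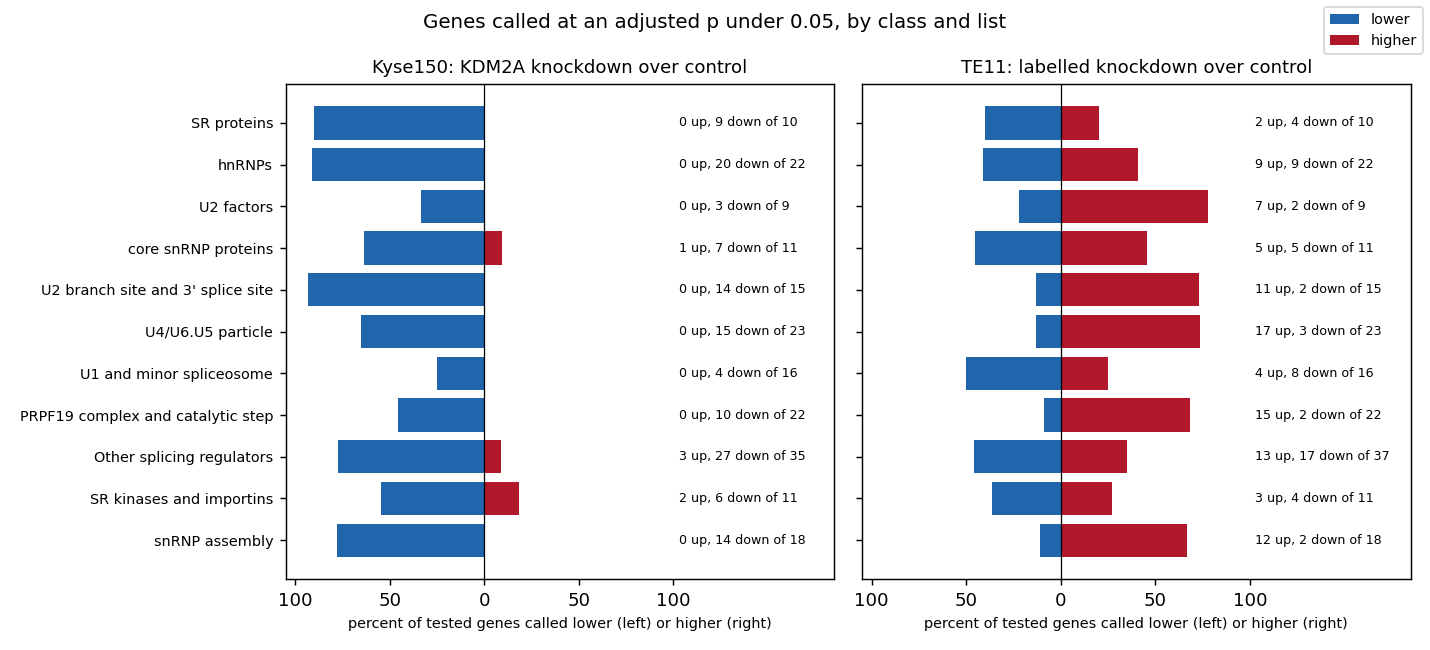
Percent of tested genes called lower (bars to the left) or higher (bars to the right) at an edgeR adjusted p under 0.05, for the 4 classes and the 7 other splicing lists, in Kyse150 knockdown over control and in libraries labelled TE11 knockdown over TE11 control. In Kyse150 the bars lie almost wholly to the left, with 20 of 22 hnRNPs lower, and in TE11 they lie on both sides, with 7 of 9 U2 factors higher.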

How the data were processed

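The authors deposited whole-number counts per gene, not normalized, as 1 table per line. Per the submitters' processing notes, the tools were HISAT2 2.1.0, HTSeq 0.9.1, DESeq2 and bcl2fastq 2.19. Their genome builds are listed as GRCh38.p13 and GRCh37.p13. The sources used here do not tie a build to a table. The labels' protocols mention 3 replicates, while 3 of the 4 groups hold 2 libraries. HTSeq's summary lines, among them 42.3% to 44.5% of fragments on no gene, were set aside before scaling.

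The members, lists and tests were chosen with earlier results of these data known. Groups and replicate numbers came from the titles. Identifiers received symbols from a table of gene names and GENCODE 29, which also gave coordinates on GRCh38. Genes were filtered with filterByExpr (minimum count 10, total 15), scaled by TMM and tested with edgeR 4.0.16 (robust quasi-likelihood, group as the single term) in R 4.3.3, adjusting by Benjamini-Hochberg over all genes tested at 0.05. Each line was fitted on its own table, and differences between responses and lines in 1 fit of the shared genes. Genes are named by a fixed rule: KDM2A, the 3 called members of each class with the smallest p per direction and line, every U2 factor, members called in opposite directions, members outside the filter, the 3 members of each class with the highest level per length, and up to 2 genes of each other list per line; exceptions are marked. Alternatives were DESeq2 1.42.0, RLE and total-count scaling, other filters, pseudogene counts added, the replicate number as a block, 1 fit of all libraries and each library left out.

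Counts were simulated from the control means of each line, with 200 genes changed. There 2-fold changes were recovered in 96% of genes for Kyse150, 98% for TE11 and 84% for the difference between them. For 1.5-fold changes the shares were 72%, 85% and 53%. False calls made up 6.67%, 4.19% and 2.14% of the calls. In the data 48.2%, 78.1% and 66.9% of genes were called, far more than were changed in the simulation. These rates therefore need not hold for the reported tests. Chi-square over its degrees of freedom was 1.62 to 4.91 between replicates, above counting noise. Each library was treated as 1 sample, and this spread cannot tell whether the libraries are independent cultures.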

Additional observations from a re-analysis of the deposited data

Results flagged for a closer look

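The following members differed between the lines in the test of the difference itself, given as the log2 fold change of the libraries labelled TE11 knockdown minus that of Kyse150 knockdown, each against its own control (edgeR adjusted p under 0.05; 66.9% of all genes were called in this test). KDM2A was no lower under the TE11 knockdown label, and tables made with different annotations stand behind the lines.

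Among the SR proteins the difference was positive for SRSF6 (2.01), SRSF1 (1.81), SRSF2 (1.24), SRSF7 (1.01), SRSF3 (0.97) and SRSF9 (0.85) and negative for SRSF4 (-0.77), SRSF11 (-0.90) and SRSF5 (-1.92). Among the hnRNPs it was above 1 for HNRNPAB (2.02), HNRNPM (1.81), HNRNPA1L2 (1.38), HNRNPH3 (1.31), HNRNPF (1.197), HNRNPK (1.02) and HNRNPU (1.01). It was smaller for HNRNPA1L3 (0.95), HNRNPUL1 (0.93), HNRNPA3 (0.69), HNRNPUL2 (0.60), HNRNPH2 (0.53), HNRNPD (0.51), HNRNPA2B1 (0.49), HNRNPL (0.47) and HNRNPA1 (0.29), and negative for HNRNPDL (-0.61) and HNRNPLL (-0.95).

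All U2 factors met it: SF3B4 (2.32), SF3A1 (1.995), SF3A3 (1.64), SF3A2 (1.27), SF3B3 (1.13), SF3B2 (0.62) and SF3B6 (0.45) with a positive difference, SF3B5 (-0.33) and SF3B1 (-0.87) with a negative one. Among the core snRNP proteins the difference was positive for SNRPB2 (1.49), SNRPG (1.33), SNRPD3 (1.18), SNRPB (0.74), SNRPE (0.48), SNRPF (0.47), SNRPD2 (0.39), SNRPC (0.34) and SNRPD1 (0.29), and negative for SNRPA (-0.67) and SNRPA1 (-1.97).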

How the results depend on the processing

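Of 128 recounts of members called under another setting, 123 stayed within 1.5 times the count reported; the others concern the single higher call in Kyse150 knockdown, which became 2 with total-count scaling, 0 with DESeq2, 0 with the replicate number as a block and 0 to 1 with a library left out. In Kyse150 knockdown the lower calls numbered 35 with DESeq2, 38 with the block and 36 to 39 with a library left out. In the libraries labelled TE11 knockdown they numbered 16 to 21 with a library left out, and the higher calls 21 to 23; for the difference between the lines the ranges were 36 to 39 higher and 8 to 9 lower. Against Kyse150 control, the libraries labelled TE11 knockdown had 22 to 23 higher and 11 to 13 lower calls, and the TE11 controls 24 to 26 and 21 to 22. Over all Kyse150 genes, DESeq2 called 4337 and edgeR 6771. For single members, 1239 recomputed values kept direction and side of the threshold, 35 lost the call, 12 gained it and 14 changed sign, all 14 in values that were not called: HNRNPLL in Kyse150 (0.0217 with total-count scaling, -0.109 to 0.0383 with a library left out), SF3B2 in Kyse150 (0.029 with total-count scaling, -0.0753 to 0.0232 with a library left out), SF3B6 in Kyse150 (-0.0500 to 0.113 with a library left out), and in TE11 SRSF6 (-0.0347 to 0.125 with a library left out), HNRNPA1L3 (-0.223 to 0.504), HNRNPA3 (0.00891 with total-count scaling, 0.000248 with the block, -0.0762 to 0.00932) and HNRNPD (0.00412 with total-count scaling, 0.00652 with the block); the cause was not tested. Same-numbered libraries did not deviate together (r = -0.044 in Kyse150, -0.0015 and -0.0060 in TE11), so the numbers are not taken to pair them. Leaving out a library where 2 remain assumes that the lone one varies like the others. Low counts limit HNRNPA1L2 and HNRNPA1L3 and exclude the 3 members outside the filter.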
